A study of Mus musculus with 16 samples.

Results

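The genes described are 10 NF-kB subunits and feedback inhibitors, chosen by symbol from the 55278 gene symbols counted in mouse heart RNA: Nfkb1, Nfkb2, Relb, Nfkbia, Nfkbie, Nfkbiz, Bcl3, Tnfaip3, Tnip1 and Zc3h12a. All 10 had counts and all 10 passed the filter on low counts that left 18713 genes for testing. The hearts came from male C57BL/6J mice aged 8 to 12 weeks in 4 groups: cardiomyocyte PPARα-deficient mice given lipopolysaccharide (LPS), Ppara-Flox mice given LPS, PPARα-deficient mice given PBS, and Ppara-Flox mice given PBS. LPS, a bacterial endotoxin, was injected into the peritoneum at 5 mg/kg in phosphate-buffered saline (PBS), PBS alone was the vehicle, and hearts were collected after 12 h. Each group held 4 heart samples, 16 in all. Ppara-Flox mice carry floxed Ppara alleles, and the deficient mice lack PPARα, a lipid-sensing nuclear receptor, in their cardiomyocytes. The labels name no Cre driver and list no group with Cre alone, so an effect of Cre and one of the deletion cannot be told apart. The labels do not state that each sample is 1 mouse, and p-values measure the spread between these samples.

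NF-kB is a family of dimeric transcription factors that IkB proteins hold in the cytoplasm. LPS, sensed through Toll-like receptor 4, activates the IkB kinase complex, IkBα is degraded, and the freed dimers enter the nucleus. Among the genes they switch on are those of their own inhibitors, which makes NF-kB a textbook case of negative feedback. The 10 genes sit at different points of that loop. Nfkb1 encodes p105, the precursor of p50, and Nfkb2 encodes p100, the precursor of p52, which also restrains other subunits until it is cleaved. Relb encodes the usual partner of p52. Nfkbia and Nfkbie encode the cytoplasmic inhibitors IkBα and IkBε, while Nfkbiz (IkBζ) and Bcl3 encode nuclear IkB proteins that work on DNA-bound p50 or p52. Tnfaip3 encodes A20, a ubiquitin-editing enzyme that shuts off receptor signalling, and Tnip1 its partner ABIN-1. Zc3h12a encodes regnase-1, a nuclease that degrades mRNAs of cytokines and other inflammatory genes.

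The start regions of these genes are shown because binding sites for NF-kB in them are how the loop closes. RefSeq promoter sequences on build GRCm38.p6 were available for 7 of the 10 genes, all but Nfkb1, Relb and Nfkbiz. In the 250 bases before an annotated start, 5 of those 7 held at least 1 match to the 10-base degenerate kB consensus on either strand (Nfkb2, Nfkbia, Nfkbie, Tnfaip3 and Tnip1), and Bcl3 and Zc3h12a held none. A match was held by 8.23% of all genes with a RefSeq promoter and by 7.25% of all 32851 promoters. A match is a run of letters, not a measured binding site, and its absence from these windows says nothing of NF-kB binding elsewhere. Below are whole windows for Nfkbia (chr12:55492648-55492897, minus strand), Nfkbie (chr17:45555450-45555699, plus strand) and Tnip1 (chr11:54962941-54963190, minus strand), each 5′ to 3′ on the gene's strand, with matches in capitals.
Nfkbia: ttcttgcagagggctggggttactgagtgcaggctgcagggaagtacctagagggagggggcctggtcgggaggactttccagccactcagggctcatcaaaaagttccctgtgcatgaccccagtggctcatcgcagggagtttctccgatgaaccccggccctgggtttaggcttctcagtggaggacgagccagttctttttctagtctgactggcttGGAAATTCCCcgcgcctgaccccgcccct
Nfkbie: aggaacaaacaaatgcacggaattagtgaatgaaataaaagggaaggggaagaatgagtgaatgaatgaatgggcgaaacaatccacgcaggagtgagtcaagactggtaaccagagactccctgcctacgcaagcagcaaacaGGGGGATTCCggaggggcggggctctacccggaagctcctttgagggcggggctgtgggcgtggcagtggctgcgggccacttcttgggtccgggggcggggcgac
Tnip1: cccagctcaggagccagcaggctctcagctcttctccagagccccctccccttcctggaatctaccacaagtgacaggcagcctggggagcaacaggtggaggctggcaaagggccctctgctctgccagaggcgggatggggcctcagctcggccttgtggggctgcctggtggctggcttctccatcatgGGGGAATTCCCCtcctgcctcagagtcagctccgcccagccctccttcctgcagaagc

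The match lay 29 bases before the start in Nfkbia, 106 in Nfkbie and 58 in Tnip1, where 3 overlapping matches formed a single stretch of 12 bases. For Nfkb2 and Tnfaip3, some of whose windows run into annotated exons, only 30 bases around some matches are shown. Nfkb2 had 3 annotated starts, and the upstream and downstream starts below are starts 1 and 3. Its matches 11 bases before start 1 and 236 bases before start 2 are not shown. The Nfkb2 stretches shown lie at chr19:46304689-46304718 and chr19:46305695-46305724 on the plus strand. Those of Tnfaip3 lie at chr10:19015516-19015545 and chr10:19015411-19015440 on the minus strand.
Nfkb2 upstream start: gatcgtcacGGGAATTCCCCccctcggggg
Nfkb2 downstream start: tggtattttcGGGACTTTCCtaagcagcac
Tnfaip3 distal: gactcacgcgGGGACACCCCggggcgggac
Tnfaip3 proximal: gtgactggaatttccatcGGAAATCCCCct

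Estimated counts, as deposited, totalled 65569134 to 75436023 in each of the 16 libraries. Among small counts, each of the 10 multiples of 4 up to 40 occurred more often than both its neighbours. If 1 read pair adds about 4, the totals correspond to 16392284 to 18859006 pairs. No 2 libraries were identical. The label on RNA extraction speaks of islets, but 4 pancreatic islet markers were at 0 in every library, while 8 cardiomyocyte markers summed to at least 33110 CPM in each (CPM, counts scaled to a common library size). Ppara, the targeted gene, averaged 14.6 ± 2.58 CPM in PPARα-deficient PBS hearts and 50.2 ± 9.86 CPM in Ppara-Flox PBS hearts (SD, n = 4 each). Under LPS it averaged 7.98 ± 3.38 CPM in PPARα-deficient hearts and 11.3 ± 3.31 CPM in Ppara-Flox hearts, and that difference did not pass (adjusted p = 0.651, edgeR). The number in each table's header ran from 1739 to 1769 in LPS samples and from 957 to 1075 in PBS samples, and its meaning is not stated, so treatment and whatever the number marks cannot be told apart. PPARα-deficient PBS replicate 4 stood apart from the other PBS libraries in Bcl3 and in the subunit gene Rel and, within its group, in Nfkbiz. Several fold changes of the 10 genes are given with and without it. The genotype difference averaged over treatments and the correlations among the 10 are given only with it.

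Levels below are CPM on TMM-scaled library sizes. Log2 fold changes are given with their standard error (SE) and, like all adjusted p-values, come from edgeR's quasi-likelihood test with Benjamini-Hochberg adjustment over 18713 genes. A gene was called at an adjusted p under 0.05.

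The first question was how LPS changed the 10 transcripts in each genotype. LPS raised 9 of the 10 in PPARα-deficient hearts and 9 of the 10 in Ppara-Flox hearts. The tenth, Nfkb1, was called in neither genotype. Among all tested genes 19.4% were called higher in PPARα-deficient hearts and 20.2% in Ppara-Flox hearts. The median log2 fold change of the 10 genes was 1.70 in PPARα-deficient hearts and 1.84 in Ppara-Flox hearts, against 0.01 for all tested genes in either genotype. The 10 genes and the lists below were chosen with earlier results of these data known. Their shares beside those of all genes are therefore a description, not a test. For each of the 9 called genes every LPS library lay above every PBS library of the same genotype, as was true of 19.5% of all genes in PPARα-deficient hearts and 19.2% in Ppara-Flox hearts. At a minimum of 2-fold, which 7.65% and 8.07% of all genes reached upward in PPARα-deficient and Ppara-Flox hearts, 8 of the 10 passed in PPARα-deficient hearts and 9 in Ppara-Flox hearts. Tnip1 in PPARα-deficient hearts was just short of it, at a log2 fold change of 0.998.

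**Figure D1:**
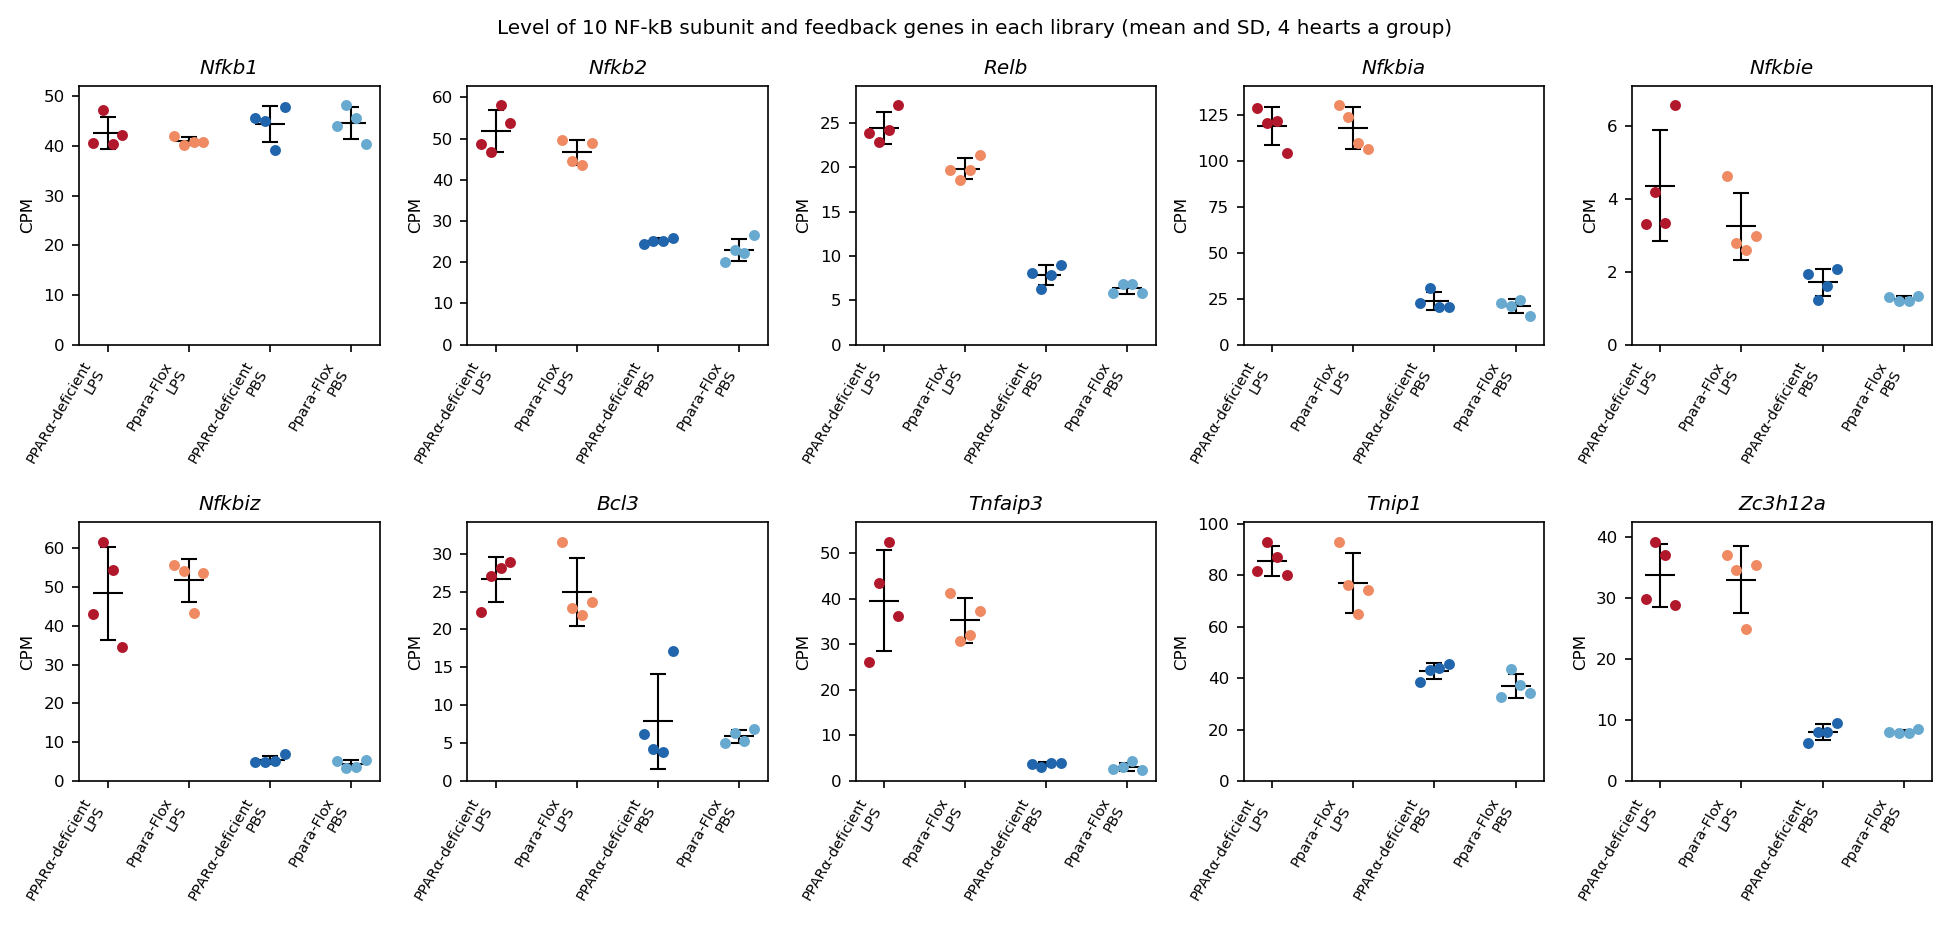
Level of each of the 10 genes in CPM (y axis, from 0) in each library, by group (x axis). Points are libraries and black bars the mean and SD of 4. For every gene but Nfkb1 the LPS points lie above the PBS points of the same genotype.

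Of the subunits, Nfkb1 (chr3:135584655-135691547, minus strand, GRCm38, protein coding) did not pass. Its level was 40.6, 47.4, 40.3 and 42.2 CPM in PPARα-deficient LPS hearts and 45.7, 45.1, 39.2 and 47.8 CPM in PPARα-deficient PBS hearts. In Ppara-Flox hearts Nfkb1 was at 42.0, 40.2, 40.9 and 40.7 CPM after LPS and 44.0, 48.2, 45.6 and 40.5 CPM after PBS. LPS and PBS libraries overlapped in both genotypes, with log2 fold changes of -0.06 ± 0.08 SE in PPARα-deficient hearts (adjusted p = 0.594) and -0.12 ± 0.08 SE in Ppara-Flox hearts (adjusted p = 0.255). The 95% intervals ran from -0.24 to 0.11 and from -0.30 to 0.05 in the same order, so the bound on a fall was 0.813-fold in Ppara-Flox hearts.

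Nfkb2 (chr19:46304320-46312385, plus strand), by contrast, rose about as much in either genotype. It stood at 48.7, 46.6, 58.1 and 53.9 CPM in PPARα-deficient LPS hearts and 24.5, 25.2, 25.1 and 25.9 CPM in PPARα-deficient PBS hearts (log2 fold change 1.04 ± 0.09 SE, adjusted p = 2.52e-07). Ppara-Flox hearts had 49.6, 44.5, 43.5 and 49.0 CPM after LPS and 20.1, 22.9, 22.2 and 26.5 CPM after PBS (1.02 ± 0.09 SE, adjusted p = 2.64e-07). A stretch of 299 bp of Nfkb2 exon, 6.52% of its exonic length, lies on the opposite strand of Psd, which reached at most 522 counts where Nfkb2 reached 4003. A further 531 bp, 11.6%, lies opposite the non-coding gene AC114539.1, for which no count was matched. The strand setting of the counting is not stated, so reads there cannot be assigned to either gene.

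Relb (chr7:19606217-19629438, minus strand) rose by a larger fold than Nfkb2, to 23.8, 22.8, 24.2 and 27.0 CPM in PPARα-deficient LPS hearts, against 8.07, 6.28, 7.84 and 9.02 CPM in PPARα-deficient PBS hearts. Levels in Ppara-Flox hearts were 19.7, 18.5, 19.7 and 21.4 CPM after LPS, against 5.79, 6.87, 6.87 and 5.83 CPM after PBS. The fold was 3.13 in PPARα-deficient hearts (log2 fold change 1.65 ± 0.11 SE, adjusted p = 1.73e-08) and 3.12 in Ppara-Flox hearts (1.64 ± 0.11 SE, adjusted p = 1.73e-08). Among the subunits outside the 10 genes, Rela, which encodes p65, averaged 78.5 ± 8.39 CPM in PPARα-deficient LPS hearts and 39.7 ± 4.44 CPM in PPARα-deficient PBS hearts (0.98 ± 0.09 SE, adjusted p = 5.97e-07). In Ppara-Flox hearts Rela averaged 77.9 ± 6.09 CPM after LPS and 39.9 ± 1.51 CPM after PBS (0.97 ± 0.09 SE, adjusted p = 6.38e-07). Rel, which encodes c-Rel, was not called, at 0.00 ± 0.29 SE in PPARα-deficient hearts (adjusted p = 0.995) and 0.45 ± 0.29 SE in Ppara-Flox hearts (adjusted p = 0.247). Rel was at 11.15, 8.27, 11.89 and 22.61 CPM in PPARα-deficient PBS hearts, so the value of 0.00 rests in part on replicate 4.

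**Figure D2:**
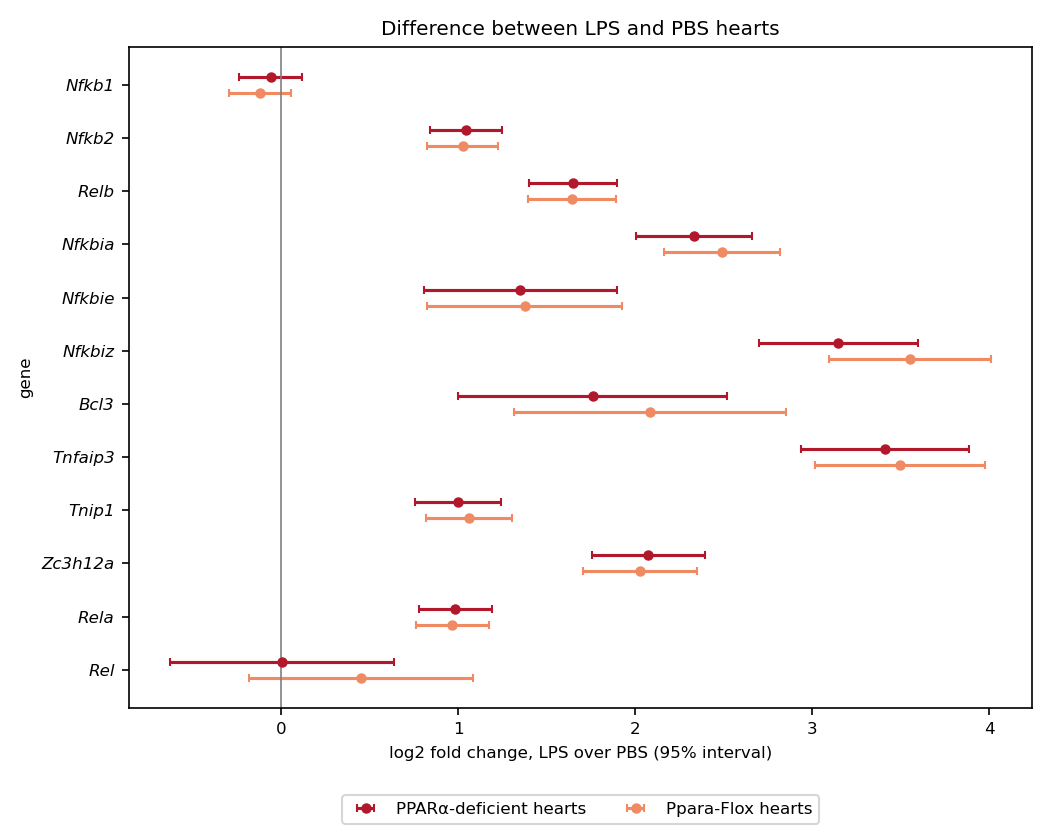
Log2 fold change, LPS over PBS (x axis), with its 95% interval for the 10 genes and for Rela and Rel (y axis), in PPARα-deficient and Ppara-Flox hearts. The intervals of Nfkb1 and Rel reach 0 in both genotypes, and Nfkbiz and Tnfaip3 lie farthest to the right.

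Because subunits differ in transcript length, their make-up was compared in CPM per kb of the longest coding transcript. Nfkb1 made up 15.1 ± 1.43% of the 5 subunit transcripts in PPARα-deficient LPS hearts and 27.9 ± 1.76% in PPARα-deficient PBS hearts, and 15.4 ± 0.78% in Ppara-Flox LPS hearts and 29.1 ± 2.05% in Ppara-Flox PBS hearts (SD, n = 4). Relb made up 16.2 ± 1.46% in PPARα-deficient LPS hearts and 9.11 ± 1.07% in PPARα-deficient PBS hearts, and 13.9 ± 0.89% in Ppara-Flox LPS hearts and 7.70 ± 0.60% in Ppara-Flox PBS hearts. Rela was the most abundant subunit transcript in all 4 groups, at 42.1 ± 3.68% in PPARα-deficient LPS hearts, 44.4 ± 1.98% in Ppara-Flox LPS hearts, 37.7 ± 1.52% in PPARα-deficient PBS hearts and 39.5 ± 0.22% in Ppara-Flox PBS hearts. On this length, Nfkb2 stood above Nfkb1 in LPS hearts and below it in PBS hearts. The log2 ratio of Nfkb2 to Nfkb1, per kb, was 0.67 ± 0.23 in PPARα-deficient LPS hearts and -0.43 ± 0.12 in PPARα-deficient PBS hearts, and 0.58 ± 0.08 in Ppara-Flox LPS hearts and -0.57 ± 0.24 in Ppara-Flox PBS hearts (SD, n = 4).

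Of 4 such ratios tested in each genotype, 8 tests in all, each gave p = 0.0286 in a two-sided exact permutation test, the smallest that 4 against 4 libraries allow, and an adjusted p = 0.0286. LPS minus PBS differences in log2 ratio were 1.10 in PPARα-deficient and 1.15 in Ppara-Flox hearts for Nfkb2 over Nfkb1. They were 0.68 in both genotypes for Relb over Rela, and -1.04 in PPARα-deficient and -1.08 in Ppara-Flox hearts for Nfkb1 over Rela. For Nfkbia over Rela, the inhibitor against the subunit it holds, they were 1.37 in PPARα-deficient and 1.54 in Ppara-Flox hearts. The ratios share Nfkb1 and Rela, and each combines genes whose LPS folds are given on their own. Their tests are thus not independent of each other or of those calls, and are no further evidence. The length chosen shifts a ratio's level but not the LPS minus PBS differences. With all annotated exons merged (12061 bp in place of 4117 bp for Nfkb1), Nfkb2 stood above Nfkb1 in all 4 groups, so the order in PBS hearts depends on the length. Nfkb1 then made up 7.31 ± 0.76% and Nfkb2 23.3 ± 2.51% in PPARα-deficient LPS hearts, against 14.3 ± 1.12% for Nfkb1 and 21.3 ± 1.63% for Nfkb2 in PPARα-deficient PBS hearts. Nfkb1 made up 7.38 ± 0.44% and Nfkb2 22.1 ± 0.82% in Ppara-Flox LPS hearts, against 14.9 ± 1.24% for Nfkb1 and 20.1 ± 1.69% for Nfkb2 in Ppara-Flox PBS hearts.

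**Figure D3:**
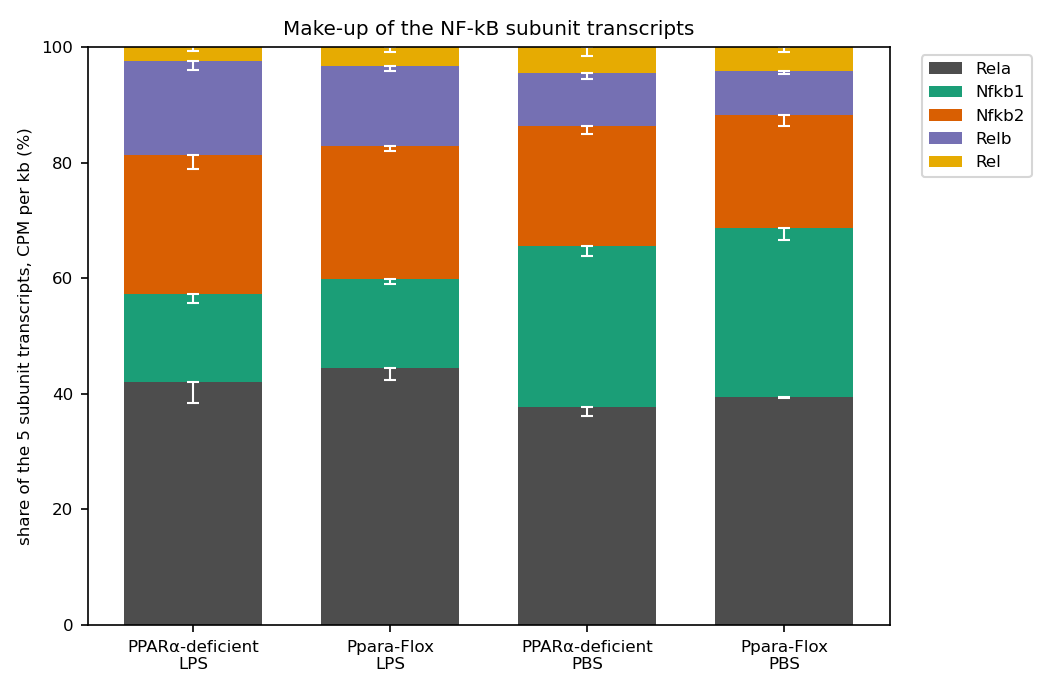
Mean share of each of the 5 subunit transcripts in their sum, in CPM per kb of the longest coding transcript (y axis, %), by group (x axis), with the SD over 4 libraries as a white bar below each segment's top. The Nfkb1 segment is smaller and the Relb segment larger in both LPS groups.

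Of the cytoplasmic inhibitors, Nfkbia (chr12:55489410-55492647, minus strand) was measured at 128.5, 120.5, 121.7 and 103.9 CPM in PPARα-deficient LPS hearts, against 22.8, 30.6, 20.4 and 20.4 CPM in PPARα-deficient PBS hearts. Ppara-Flox hearts had 130.1, 123.9, 109.7 and 106.4 CPM after LPS and 22.6, 21.1, 24.4 and 15.6 CPM after PBS. The lowest LPS library thus was more than 3 times as high as the highest PBS library. The increase was 5.03-fold in PPARα-deficient hearts (log2 fold change 2.33 ± 0.15 SE, adjusted p = 8.7e-09) and 5.62-fold in Ppara-Flox hearts (2.49 ± 0.15 SE, adjusted p = 4.2e-09). Per kb, Nfkbia was the most abundant of the 10 genes with Rela and Rel after LPS, at 75.2 ± 6.62 CPM per kb in PPARα-deficient and 74.5 ± 7.17 CPM per kb in Ppara-Flox hearts, with no overlap with the next, Rela. In PBS hearts its range overlapped those of Rela and Tnip1. Nfkbie (chr17:45555703-45563169, plus strand), at the other end, ranged over 3.33 to 6.58 CPM in PPARα-deficient LPS hearts and 1.24 to 2.07 CPM in PPARα-deficient PBS hearts (log2 fold change 1.35 ± 0.25 SE, adjusted p = 0.000409). In Ppara-Flox hearts it ranged over 2.59 to 4.62 CPM after LPS and 1.18 to 1.34 CPM after PBS (1.37 ± 0.25 SE, adjusted p = 0.000359).

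The nuclear IkB genes rose as well. Nfkbiz (chr16:55811375-55838899, minus strand) was at 43.0, 61.7, 54.4 and 34.5 CPM in PPARα-deficient LPS hearts and 4.85, 4.83, 5.17 and 6.98 CPM in PPARα-deficient PBS hearts. Levels in Ppara-Flox hearts were 55.8, 54.1, 43.4 and 53.5 CPM after LPS and 5.19, 3.33, 3.58 and 5.51 CPM after PBS. With Tnfaip3 it had the largest folds of the 10 genes, 8.86-fold in PPARα-deficient hearts (log2 fold change 3.15 ± 0.21 SE, adjusted p = 1.0e-08) and 11.7-fold in Ppara-Flox hearts (3.55 ± 0.21 SE, adjusted p = 3.5e-09). The coefficient of variation of Nfkbiz after LPS was 24.9% in PPARα-deficient hearts and 10.9% in Ppara-Flox hearts, a difference in spread that was not tested.

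Bcl3 (chr7:19808462-19822770, minus strand) was at 22.2, 27.1, 28.1 and 28.9 CPM in PPARα-deficient LPS hearts, against 6.21, 4.28, 3.83 and 17.1 CPM in PPARα-deficient PBS hearts. The Ppara-Flox libraries were at 31.6, 22.8, 21.9 and 23.6 CPM after LPS and 5.04, 6.35, 5.31 and 6.89 CPM after PBS. On the opposite strand, the antisense gene Gm16175 overlaps 6.51% of the Bcl3 exons and reached at most 13 counts, where Bcl3 reached 2131. PPARα-deficient PBS replicate 4, at 17.1 CPM, lay between the other PBS libraries and the LPS libraries. The log2 fold change was 1.76 ± 0.35 SE in PPARα-deficient hearts (adjusted p = 0.000729) and 2.08 ± 0.35 SE in Ppara-Flox hearts (adjusted p = 0.000175). Without that library the value in PPARα-deficient hearts was 2.48 ± 0.19 SE (adjusted p = 1.43e-07). The same library had the highest summed level of 12 neutrophil markers among PBS hearts, 11.6 CPM against 4.06 to 5.52 CPM in the other PBS libraries. The part of other cells in its Bcl3 level was not tested.

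Of the genes that shut off signalling, Tnfaip3 (chr10:19000910-19015657, minus strand) was at 26.2, 43.5, 52.5 and 36.1 CPM in PPARα-deficient LPS hearts and 3.81, 3.13, 3.97 and 3.96 CPM in PPARα-deficient PBS hearts. In Ppara-Flox hearts it was 41.2, 30.6, 32.0 and 37.2 CPM after LPS and 2.62, 3.07, 4.39 and 2.40 CPM after PBS. Every LPS library lay well above every PBS library, and the rise was 10.6-fold in PPARα-deficient hearts (log2 fold change 3.41 ± 0.22 SE, adjusted p = 8.7e-09) and 11.3-fold in Ppara-Flox hearts (3.50 ± 0.22 SE, adjusted p = 6.5e-09). Its partner Tnip1 (chr11:54910785-54962917, minus strand) was abundant in PBS hearts already and rose less. It ranged over 80.1 to 93.0 CPM in PPARα-deficient LPS hearts and 38.6 to 45.5 CPM in PPARα-deficient PBS hearts (log2 fold change 0.998 ± 0.11 SE, adjusted p = 2.54e-06), and averaged 77.1 ± 11.6 CPM in Ppara-Flox LPS hearts against a range of 32.8 to 43.6 CPM in Ppara-Flox PBS hearts (1.06 ± 0.11 SE, adjusted p = 1.30e-06). Per kb the pair stood far apart in PBS hearts, at 0.841 ± 0.090 CPM per kb for Tnfaip3 and 14.4 ± 0.995 CPM per kb for Tnip1 in PPARα-deficient hearts. After LPS they stood at 8.95 ± 2.53 CPM per kb for Tnfaip3 and 28.7 ± 1.96 CPM per kb for Tnip1 in the same genotype.

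Zc3h12a (chr4:125118423-125127840, minus strand), the regnase-1 gene, ranged over 28.8 to 39.2 CPM in PPARα-deficient LPS hearts and 6.27 to 9.51 CPM in PPARα-deficient PBS hearts (4.21-fold, log2 fold change 2.07 ± 0.15 SE, adjusted p = 2.46e-08). In Ppara-Flox hearts it ranged over 24.8 to 37.0 CPM after LPS and 7.84 to 8.54 CPM after PBS (4.07-fold, 2.03 ± 0.15 SE, adjusted p = 2.83e-08). Of 11 transcripts known as targets of regnase-1, 10 passed the filter on low counts. Of these 10, 7 rose and 1 fell in PPARα-deficient hearts, where 19.4% of all genes were called higher and 18.3% lower. In Ppara-Flox hearts 8 rose and 1 fell, where 20.2% of all genes were called higher and 19.1% lower. Median log2 fold changes of the 10 were 3.05 in PPARα-deficient and 3.79 in Ppara-Flox hearts. Lcn2, encoding the iron-binding protein lipocalin-2, averaged 1608 ± 342 CPM in PPARα-deficient LPS hearts and 2.43 ± 0.79 CPM in PPARα-deficient PBS hearts, and 1620 ± 210.1 CPM in Ppara-Flox LPS hearts and 2.56 ± 0.38 CPM in Ppara-Flox PBS hearts. The neutrophil chemokine gene Cxcl1 had log2 fold changes of 4.33 ± 0.60 SE in PPARα-deficient and 5.37 ± 0.64 SE in Ppara-Flox hearts, and Cxcl2 of 4.53 ± 0.56 SE and 4.96 ± 0.60 SE in the same order. The gene that fell in both was Tfrc, the transferrin receptor, named after its values were seen, at -1.61 ± 0.30 SE in PPARα-deficient and -2.17 ± 0.30 SE in Ppara-Flox hearts.

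Of 6 transcripts known to need IkBζ in macrophages, 5 passed the filter on low counts. Of these 5, 5 rose in PPARα-deficient hearts and 4 in Ppara-Flox hearts, against the same shares of all genes. Lcn2 is among them. Cebpd, a transcription factor gene of the acute-phase response, averaged 88.1 ± 10.2 CPM in PPARα-deficient LPS hearts and 16.7 ± 3.77 CPM in PPARα-deficient PBS hearts, and 96.2 ± 10.6 CPM in Ppara-Flox LPS hearts and 11.4 ± 2.15 CPM in Ppara-Flox PBS hearts. Csf3, the gene of granulocyte colony-stimulating factor, averaged 29.2 ± 6.91 CPM in PPARα-deficient LPS hearts and 28.4 ± 8.86 CPM in Ppara-Flox LPS hearts. It was at 0 in all PBS libraries of both genotypes. Such a gene passes the filter only through LPS hearts and cannot be called lower. The counts of both target lists beside those of all genes are therefore a description, not a test. The lists of regnase-1 and IkBζ targets share Lcn2 and Il6, so they are not independent of each other.

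Other genes of the pathway moved less uniformly. Of 52 such genes outside the 10, LPS raised 22 and lowered 4 in PPARα-deficient hearts, and raised 24 and lowered 5 in Ppara-Flox hearts, with median log2 fold changes of 0.22 in PPARα-deficient and 0.31 in Ppara-Flox hearts. Among all tested genes 19.4% were called higher and 18.3% lower in PPARα-deficient hearts, and 20.2% higher and 19.1% lower in Ppara-Flox hearts, which is the background to this and the following counts. Of 9 genes of the IKK complex and its activating kinases, 1 rose and 0 fell in PPARα-deficient hearts, and 3 rose and 1 fell in Ppara-Flox hearts. Map3k8, encoding the kinase TPL2 that p105 holds inactive, rose in both, by 2.15 ± 0.20 SE on the log2 scale in PPARα-deficient hearts (adjusted p = 4.05e-07) and by 2.44 ± 0.20 SE in Ppara-Flox hearts (adjusted p = 1.07e-07). Chuk (IKKα) and Tab3 were called in Ppara-Flox hearts at 0.57 ± 0.12 SE and 0.52 ± 0.14 SE, and were at 0.31 ± 0.12 SE (adjusted p = 0.06) and -0.05 ± 0.14 SE (adjusted p = 0.806) in PPARα-deficient hearts. The gene that fell in Ppara-Flox hearts was Map3k14, encoding the kinase NIK and named after its values were seen, at -0.56 ± 0.17 SE (adjusted p = 0.0169), and it was at -0.19 ± 0.17 SE in PPARα-deficient hearts (adjusted p = 0.416).

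Of the IkB genes outside the 10, Nfkbib, encoding IkBβ, rose by 1.16 ± 0.10 SE in PPARα-deficient and 0.92 ± 0.10 SE in Ppara-Flox hearts. Nfkbid, encoding the nuclear IkBNS, was called in Ppara-Flox hearts (1.69 ± 0.52 SE, adjusted p = 0.0164), and was at 1.27 ± 0.52 SE in PPARα-deficient hearts (adjusted p = 0.064). Its levels were low, at 0.859 ± 0.107 CPM in Ppara-Flox LPS hearts and 0.265 ± 0.107 CPM in Ppara-Flox PBS hearts (SD). In PPARα-deficient hearts they were 0.659 ± 0.208 CPM after LPS and 0.272 ± 0.211 CPM after PBS. The call did not hold at an adjusted p under 0.01 (edgeR). Nfkbil1, an IkB-like gene, was called at 0.47 ± 0.14 SE in PPARα-deficient hearts (adjusted p = 0.0129) and 0.40 ± 0.14 SE in Ppara-Flox hearts (adjusted p = 0.0307), where 6 of the 16 omissions of a single library ended the call.

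Among 12 genes of ubiquitin editing 5 rose and 2 fell in each genotype. Rnf31, encoding HOIP, the catalytic subunit of the linear ubiquitin ligase, rose by 1.12 ± 0.14 SE in PPARα-deficient and 1.07 ± 0.14 SE in Ppara-Flox hearts. Usp18, encoding a protease that removes the ubiquitin-like ISG15, rose by 3.28 ± 0.44 SE in PPARα-deficient hearts (adjusted p = 1.982e-05) and 2.38 ± 0.43 SE in Ppara-Flox hearts (adjusted p = 0.000295). Tnip2, a relative of Tnip1, rose by 0.75 ± 0.12 SE in PPARα-deficient and 0.92 ± 0.12 SE in Ppara-Flox hearts. Tnip3, another relative, was lower, at 0.619 ± 0.114 CPM in PPARα-deficient LPS hearts and 1.25 ± 0.418 CPM in PPARα-deficient PBS hearts, and at 0.324 ± 0.070 CPM in Ppara-Flox LPS hearts and 1.15 ± 0.267 CPM in Ppara-Flox PBS hearts (adjusted p = 0.0154 in PPARα-deficient and 0.000237 in Ppara-Flox hearts).

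Of 20 receptor adaptor and TRAF genes, 11 rose and 1 fell in PPARα-deficient hearts, and 10 rose and 2 fell in Ppara-Flox hearts. Irak3, encoding IRAK-M, an inhibitor of Toll-like receptor signalling, rose by 2.36 ± 0.12 SE in PPARα-deficient hearts (adjusted p = 1.06e-09) and 2.32 ± 0.12 SE in Ppara-Flox hearts (adjusted p = 1.14e-09). The adaptor gene Myd88 rose by 1.80 ± 0.14 SE in PPARα-deficient and 2.14 ± 0.14 SE in Ppara-Flox hearts, and Birc3, encoding cIAP2, by 2.03 ± 0.13 SE and 1.98 ± 0.13 SE in the same order. In the list labelled regnase family, which also holds the roquin genes Rc3h1 and Rc3h2, 2 of 6 genes rose in both genotypes. Zc3h12d (regnase-4) rose by 2.76 ± 0.33 SE in PPARα-deficient and 3.05 ± 0.32 SE in Ppara-Flox hearts, and N4bp1, another nuclease gene, by 0.62 ± 0.08 SE in PPARα-deficient and 0.49 ± 0.08 SE in Ppara-Flox hearts. Rc3h1, encoding roquin-1, was called lower, at -0.43 ± 0.16 SE, in PPARα-deficient hearts (adjusted p = 0.0421), and was at -0.08 ± 0.16 SE in Ppara-Flox hearts (adjusted p = 0.749). Its call was lost in 9 of the 16 omissions of a single library.

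**Figure D4:**
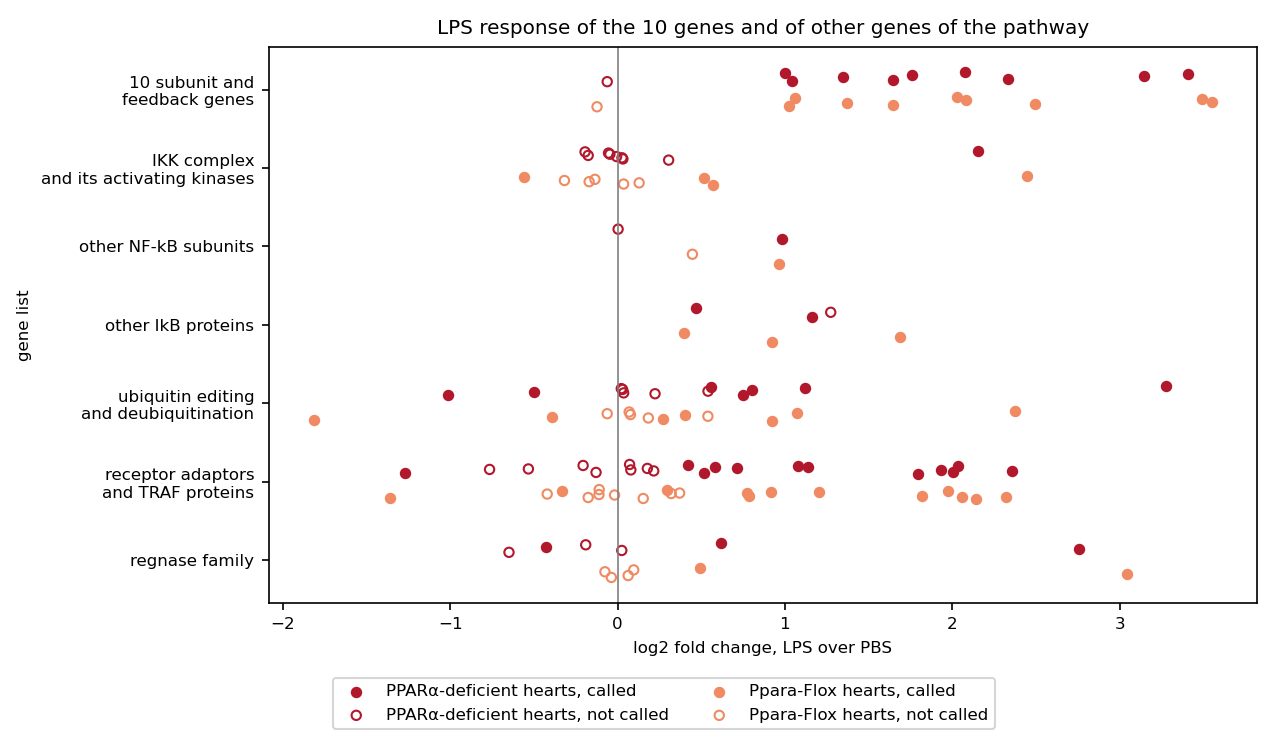
Log2 fold change, LPS over PBS (x axis), of the 10 genes and of the other pathway genes by list (y axis), in PPARα-deficient and Ppara-Flox hearts. Filled points were called at an adjusted p under 0.05 and open points were not. In the IKK list Map3k8 lies farthest from 0 in both genotypes, and the other called genes of that list, all in Ppara-Flox hearts, lie at 0.57, 0.52 and -0.56.

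Summed levels of neutrophil, macrophage, cardiomyocyte and endothelial markers differed between treatments as well, without overlap in either genotype. Fibroblast, T cell and B cell sums overlapped in both genotypes. Of 8 fibroblast markers 1 rose and 5 fell after LPS in each genotype, and of 8 endothelial markers 0 rose and 3 fell in each. Summed levels of 12 neutrophil markers were 56.1 to 90.9 CPM in PPARα-deficient LPS hearts and 4.06 to 11.6 CPM in PPARα-deficient PBS hearts, and 63.1 to 114.5 CPM in Ppara-Flox LPS hearts and 4.15 to 5.49 CPM in Ppara-Flox PBS hearts. Of the 9 tested, 8 rose in PPARα-deficient and 7 in Ppara-Flox hearts. Most of the LPS sums came from 1 marker, Hdc. Its median was 47.1 CPM in PPARα-deficient LPS hearts, where the sum had a median of 77.6 CPM. In Ppara-Flox LPS hearts the medians were 53.6 CPM for Hdc and 80.4 CPM for the sum. Of the 12 listed, 0 were at 0 throughout PPARα-deficient LPS hearts, 1 throughout Ppara-Flox LPS hearts, 4 throughout PPARα-deficient PBS hearts and 3 throughout Ppara-Flox PBS hearts. The 12 macrophage markers summed to 212.9 to 292.1 CPM in PPARα-deficient LPS hearts and 367.3 to 431.2 CPM in PPARα-deficient PBS hearts, and to 188.7 to 253.9 CPM in Ppara-Flox LPS hearts and 321 to 403.8 CPM in Ppara-Flox PBS hearts. Of these 12, 1 rose and 5 fell in PPARα-deficient hearts, and 1 rose and 6 fell in Ppara-Flox hearts. Much of the fall in the sum was Lyz2, with medians of 23.8 CPM after LPS and 110.7 CPM after PBS in PPARα-deficient hearts. In Ppara-Flox hearts its medians were 22.6 CPM after LPS and 107.7 CPM after PBS. The 8 cardiomyocyte markers summed to 37550 to 42800 CPM in PPARα-deficient LPS hearts and 59520 to 65610 CPM in PPARα-deficient PBS hearts, and to 33110 to 39150 CPM in Ppara-Flox LPS hearts and 64050 to 69930 CPM in Ppara-Flox PBS hearts. The part of these shifts in the LPS response of the 10 genes was not tested. In whole hearts, fewer cells of a type and less RNA per cell cannot be told apart.

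The second question was whether loss of PPARα in cardiomyocytes changed the 10 transcripts. None of the 10 was called between genotypes in LPS hearts, where 1.23% of all genes were, and none in PBS hearts, where 0.433% were. DESeq2 and limma-voom called 0 of the 10 in either comparison too. Relb alone had an unadjusted p under 0.05, in both comparisons by edgeR, as did 9.13% of all genes in LPS hearts and 5.57% in PBS hearts. In LPS hearts the PPARα-deficient libraries, at 22.8 to 27.0 CPM, all lay above the Ppara-Flox libraries, at 18.5 to 21.4 CPM, as was true of 2.53% of all genes. Cell type markers differed between the same libraries. The 8 endothelial markers summed to 865.1 to 903.3 CPM in PPARα-deficient LPS hearts and 957.4 to 1092 CPM in Ppara-Flox LPS hearts, without overlap, with none at 0 throughout a group, and 1 of the 8, Flt1, was called lower. Of the 8 cardiomyocyte markers 1, Tnnt2, was called higher, and their sums overlapped, as given above. Their part in the Relb difference was not tested. The log2 fold change was 0.30 ± 0.11 SE in LPS hearts (adjusted p = 0.329) and 0.30 ± 0.11 SE in PBS hearts (adjusted p = 0.645). In PBS hearts the groups overlapped, and the value was 0.22 ± 0.12 SE without PPARα-deficient PBS replicate 4.

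Averaging the genotype difference over LPS and PBS hearts, a contrast chosen after seeing the data, gave Relb 0.30 ± 0.08 SE (adjusted p = 0.0872), which did not pass either. In that contrast 4 of the 10 had an unadjusted p under 0.05, as did 8.97% of all genes. Besides Relb they were Nfkbie (0.44 ± 0.18 SE, adjusted p = 0.407), Tnip1 (0.18 ± 0.08 SE, adjusted p = 0.478) and Nfkb2 (0.14 ± 0.06 SE, adjusted p = 0.528), all higher in PPARα-deficient hearts. The contrast was not run without PPARα-deficient PBS replicate 4, which was the highest of its group in all 4 genes. Over all genes 1.4% were called in that contrast.

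For the other genes the intervals bound what these libraries can show. In LPS hearts the 95% interval of the PPARα-deficient over Ppara-Flox fold was 0.814 to 1.25 for Nfkbia, 0.827 to 1.26 for Zc3h12a and 0.835 to 1.51 for Tnfaip3. The interval was widest for Bcl3, at 0.641 to 1.77, and Nfkbie, at 0.929 to 1.95. In PBS hearts Bcl3 was at 0.41 ± 0.34 SE on the log2 scale with all libraries and at -0.30 ± 0.18 SE without PPARα-deficient PBS replicate 4, so its direction rests on that library. Of the 52 other pathway genes 0 were called between genotypes in PBS hearts and 1 in LPS hearts. That gene, Otulin, which encodes a deubiquitinase of linear chains, averaged 30.3 ± 5.12 CPM in PPARα-deficient LPS hearts and 21.7 ± 1.66 CPM in Ppara-Flox LPS hearts (0.48 ± 0.11 SE, adjusted p = 0.0406). Its call was lost in 14 of the 16 omissions of a single library, with log2 fold changes of 0.37 to 0.52 and adjusted p-values of 0.0505 to 0.131 (edgeR).

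**Figure D5:**
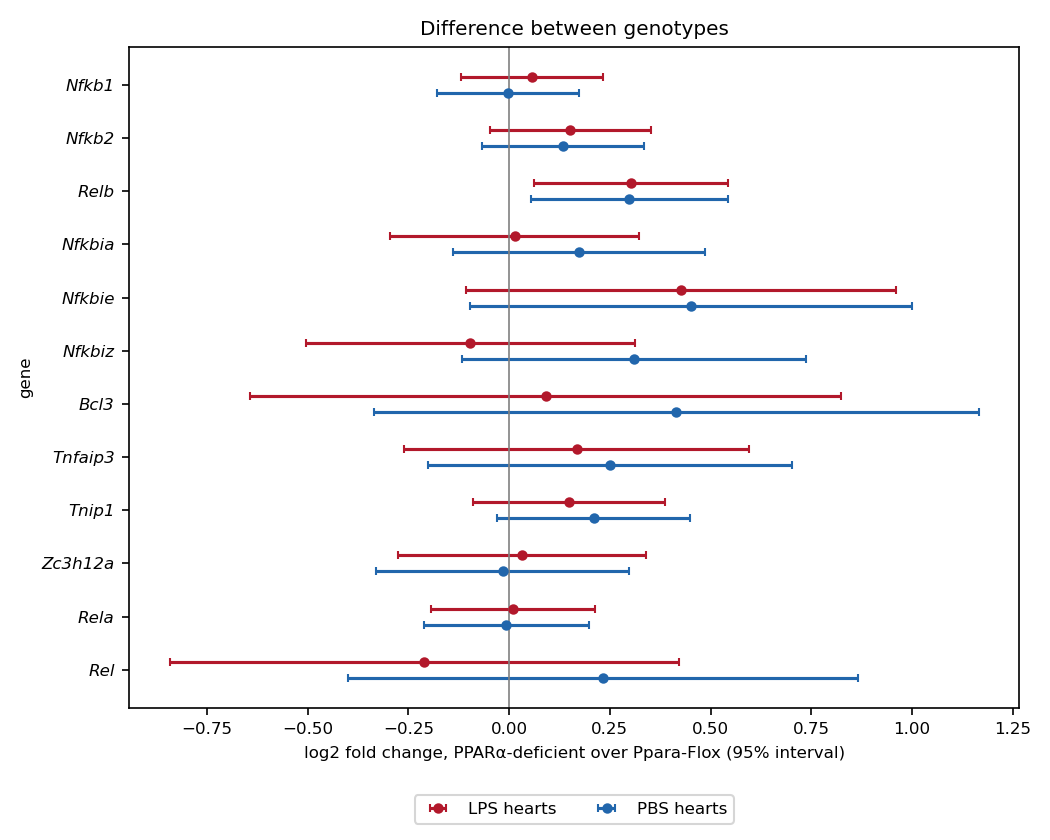
Log2 fold change, PPARα-deficient over Ppara-Flox (x axis), with its 95% interval for the 10 genes and for Rela and Rel (y axis), in LPS and PBS hearts. The intervals of Relb lie above 0 in both treatments before adjustment, and those of the other genes include 0.

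The third question was whether the LPS effect itself differed between genotypes. It was called different for 0 of the 10 genes, and 0 had an unadjusted p under 0.05. Over all genes 0 were called (0%), with 1075 at an unadjusted p under 0.05. The interaction (PPARα-deficient minus Ppara-Flox, each as the log2 fold change of LPS over PBS) was closest to 0 for Relb (0.00 ± 0.16 SE) and farthest for Nfkbiz (-0.41 ± 0.27 SE, 95% interval -0.997 to 0.184). DESeq2 called 55 genes over the whole table and 0 of the 10. For Bcl3 the interaction was -0.32 ± 0.48 SE with all libraries and 0.39 ± 0.24 SE without PPARα-deficient PBS replicate 4.

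Within groups the 10 genes were weakly correlated. After removing group means, 36 of 45 pairs had a positive Pearson correlation over the 16 libraries, with a median of 0.205 and a range of -0.43 to 0.72. These values share library and scaling and are a description. PPARα-deficient PBS replicate 4 had the highest mean deviation over the 10 genes, 1.01 SD above its group, and Ppara-Flox LPS replicate 1 the next, at 0.88 SD. Outside the 10 genes and the lists, the genes whose deviations were most like the mean of the 10 among 10467 candidates were Mapk9 (r = 0.85), Bms1 (0.83), Glrx (0.82), Il18bp (0.82) and Pdgfa (0.80). Without PPARα-deficient PBS replicate 4 these were 0.845 for Mapk9, 0.72 for Bms1, 0.83 for Glrx, 0.70 for Il18bp and 0.73 for Pdgfa. Their ranks were then 3 for Mapk9, 31 for Bms1, 5 for Glrx, 41 for Il18bp and 22 for Pdgfa. The genes were picked as the highest of 10467, so large values arise in part from that choice, and none was tested.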

How the data were processed

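Heart RNA of 16 samples was sequenced with stranded libraries, per the labels. The authors deposited 1 table per sample of estimated counts, given by gene symbol and all whole numbers. Build GRCm38 and the tools HISAT, DESeq2 1.30.1, StringTie 1.3.3b and fastp 0.23.2 appear in the submitters' processing notes. Which tool made the counts, the annotation and the strand setting are not given in the sources used here. Of 55421 lines, 27 with symbols turned into dates were left out (0.0644% to 0.0861% of counts) and 116 repeated lines merged. Genes were kept by filterByExpr, scaled by TMM and fitted as 4 group means with edgeR 4.0.16 in R 4.3.3 (12 residual degrees of freedom). The SE is the log2 fold change divided by the root of F, and intervals cover 95%. Ratios were tested in scipy. Coordinates come from GENCODE on GRCm38. The model was tested on simulated data.

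The 10 genes and all lists were chosen with earlier results of these data known. Named pathway genes are the up to 3 called genes of each list with the smallest adjusted p, some of which are given only by count. Alternatives were RLE and upper-quartile factors, DESeq2 1.42.0, limma-voom (limma 3.58.1), a 2-fold minimum, no filter, an adjusted p under 0.01, counts divided by 4, fitting just the 8 libraries of a comparison, a filter of at least 1 CPM in 8 libraries, the replicate number as a block, leaving out each library, and leaving out Ppara-Flox LPS replicate 4 with PPARα-deficient LPS replicate 3. Added after seeing the data were the PBS header numbers below or above 1000 as a block, the averaged genotype contrast and the choice of length. The tests on subunit ratios were not part of the planned comparisons.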

Additional observations from a re-analysis of the deposited data

Results flagged for a closer look

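Of 52 groups of 4 libraries tested for a value far from the others, covering the 10 genes with Ppara, Rela and Rel, 1 was flagged, where chance flags about 1 in 20. Nfkbiz was at 6.98 CPM in PPARα-deficient PBS replicate 4, against 4.83 to 5.17 CPM in the other 3 libraries of its group. Without that library the LPS effect on Nfkbiz in PPARα-deficient hearts was 3.29 ± 0.22 SE on the log2 scale, against 3.15 ± 0.21 SE with it.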

How the results depend on the processing

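Under every alternative run, 8 or 9 of the 10 genes were called higher after LPS in PPARα-deficient hearts and 9 in Ppara-Flox hearts, 0 between genotypes and 0 for the interaction. The 8 arose under the 2-fold minimum, through Tnip1. With the PBS header numbers as a block 0 of the 10 differed between genotypes in PBS hearts. With the replicate block 9, 9, 0, 0 and 0 were called in the same order as the comparisons above (PPARα-deficient, Ppara-Flox, LPS hearts, PBS hearts, interaction), and over all genes 187 in LPS hearts against 231 without it. Of the same-numbered samples, at most 1 of 4 pairs correlated over 0.1 in any comparison. Between LPS and PBS in PPARα-deficient hearts, 7 of 8 samples correlated best with their own number (same-number r of 0.03 to 0.10). In the other comparisons 1 to 3 of 8 did. Whether same-numbered samples share more than a number was therefore not settled. Of 1400 values of the 10 genes under alternatives 41 had the other sign, 27 of them interactions, and none of the 41 was a called value. DESeq2 called 183 genes between genotypes in PBS hearts and 444 in LPS hearts, against 81 and 231 by edgeR, and a fit to the 8 LPS libraries alone called 141. The upper-quartile factors gave 3318 higher and 3811 lower calls in PPARα-deficient hearts, and 3345 higher and 4021 lower in Ppara-Flox hearts. Among the genes outside the 10 named by the smallest adjusted p, and Ppara, the calls of Nfkbil1, Rc3h1, Otulin and Ppara were lost on leaving out single libraries. Without a filter those of Nfkbil1, Rc3h1 and Otulin were lost, and with the replicate block that of Otulin (adjusted p = 0.0617, edgeR). At an adjusted p under 0.01, LPS raised 19 and lowered 1 of the 52 other pathway genes in PPARα-deficient hearts, and raised 20 and lowered 3 in Ppara-Flox hearts, and 0 differed between genotypes in LPS hearts. Counting at about 4 per read pair leaves Nfkbie, under 7 CPM everywhere, the least precisely counted of the 10.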
